A study of Mus musculus with 18 samples.

Results

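The aquaporins are membrane channels for water, and some of them also pass glycerol. This account follows 8 transcripts of water and glycerol handling in mouse ileum, among 55487 genes in the count files: the aquaporins *Aqp1*, *Aqp3*, *Aqp4*, *Aqp7*, *Aqp8* and *Aqp11*, and 2 enzymes that use glycerol or its phosphate, *Gk* and *Gpd1*. They were selected by name from the expression table, with earlier results of these data known, so their differences between genotypes are given as a description. Where a member is said to be called in a genotype comparison, this reports its place in the fit of all genes and is no independent test. RNA was sequenced from the whole thickness of the ileum of 18 chow-fed C57BL6/J littermates aged 8 to 13 weeks, with 1 library per mouse. By the study's account all carried the CAG-*Ppara*,-*EGFP* transgene in the *Col1a1* locus. All received tamoxifen (100 mg/kg by intraperitoneal injection on 3 consecutive days), with tissue taken 2 weeks after the last dose. Of the mice, 6 heterozygous and 6 homozygous ones, called IEC-*Ppara*, also carried *Villin-CreERT2*, a tamoxifen-activated recombinase driven by an intestinal epithelial promoter, whereas the 6 controls lacked it. The labels do not say how many transgene copies each control had, and the deposited column names mark the controls as wt. Sexes were balanced among controls (3 and 3), whereas 2 of 6 mice were female in either IEC-*Ppara* genotype.

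Classical aquaporins such as AQP1 and AQP4 pass water only, while the aquaglyceroporins AQP3 and AQP7 pass glycerol as well, down its concentration gradient. Inside the cell, glycerol kinase (*Gk*) phosphorylates glycerol to glycerol-3-phosphate, and the cytosolic glycerol-3-phosphate dehydrogenase (*Gpd1*) interconverts that product with the glycolytic intermediate dihydroxyacetone phosphate. Glycerol-3-phosphate is the backbone on which enterocytes can build triglycerides from absorbed fat. PPARα is a lipid-activated nuclear receptor that binds DNA together with RXR, and in the liver it is known to regulate genes of glycerol metabolism.

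The pore of an aquaporin is lined by a pair of short loops, each carrying a box of 3 residues called the NPA box after its usual composition, and the boxes of AQP7 and AQP11 are known to depart from it. The coding stretches below show these boxes for the expressed aquaporins other than *Aqp4*, because the box is what separates the orthodox channels from the unusual ones in this set. Each has 27 bases, is read 5′ to 3′ on the coding strand from the GENCODE M21 transcripts (GRCm38), and has the 3 codons of the box in capitals.
*Aqp1*, first box, from codon 76: gctcacctcAACCCTGCGgtcacactg
*Aqp1*, last box, from codon 192: tgcggtatcAACCCTGCCcggtcattt
*Aqp3*, first box, from codon 83: gcccacttgAACCCCGCTgtgaccttc
*Aqp3*, last box, from codon 215: tatgccgtcAACCCTGCCcgtgacttt
*Aqp7*, first box, from codon 79: gcccacatgAATGCCGCAgtgactttc
*Aqp7*, last box, from codon 211: tatgcaatcAACCCATCCcgtgacctg
*Aqp11*, first box, from codon 99: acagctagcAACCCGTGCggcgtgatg
*Aqp11*, last box, from codon 216: gcattgtttAACCCAGCGctggcactt

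All 8 stretches lie within a single exon. In *Aqp1* (ENSMUSG00000004655, chr6:55336432-55348555, plus strand) they are in exons 1 and 3 of 4, at chr6:55336707-55336733 and chr6:55345828-55345854. In *Aqp3* (ENSMUSG00000028435, chr4:41092722-41098183, minus strand) they are in exons 3 and 5 of 6, at chr4:41094810-41094836 and chr4:41093832-41093858. In *Aqp7* (ENSMUSG00000028427, chr4:41033074-41048139, minus strand) they are in exons 5 and 7 of 8, at chr4:41035602-41035628 and chr4:41034804-41034830. In *Aqp11* (ENSMUSG00000042797, chr7:97724006-97738289, minus strand) they are in exons 1 and 2 of 3, at chr7:97737676-97737702 and chr7:97729044-97729070. The other members are *Aqp4* (ENSMUSG00000024411, chromosome 18), *Aqp8* (ENSMUSG00000030762, chr7:123462291-123468004, plus strand), *Gk* (ENSMUSG00000025059, chrX:85701937-85776819, minus strand) and *Gpd1* (ENSMUSG00000023019, chr15:99717515-99725005, plus strand). The annotation places other genes over 3 of the 8. Antisense *Gm50048* at *Aqp4* had 44 counts over all 18 libraries, the pseudogene *Gm14767* and antisense *Gm14764* at *Gk* had 192 and 1, and antisense *Gm16537* at *Gpd1* had 45. The libraries do not mark strand, and the study counted only reads that fell unambiguously in 1 gene. Reads from a shared stretch would then be counted for neither gene. The partner counts are small beside those of the members, but they do not measure that loss.

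Library totals ranged from 38528522 to 50376371 counts. *Ppara*, the gene that the transgene carries, had 38.1 ± 8.40 CPM (counts scaled to the library total; SD, n = 6) in controls, 141 ± 35.4 in heterozygous and 216 ± 35.5 in homozygous mice, with no overlap between controls and either IEC-*Ppara* group. Each library is a mixture of the gut wall. All 10 ileal enterocyte markers were above 1 CPM in every library, with summed levels of 23947 to 32169 CPM in controls, 24871 to 30893 in heterozygous and 23136 to 29329 in homozygous mice. The 10 smooth muscle markers summed to 682 to 6140, 852 to 4510 and 4157 to 9690 CPM in the same order of groups, so muscle content varied widely within a genotype and was higher in the homozygous group by its median (5008 CPM, against 3923 in controls). B cell markers were high in 4 libraries (controls 2 and 3, heterozygous 2, homozygous 1), and the 10 adipocyte markers ranged from 49.2 to 1215 CPM. Less RNA per cell and fewer cells of a type cannot be told apart in such tissue.

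Levels of different genes are compared per length, as FPKM (CPM divided by the exonic length in kilobases). In controls the order was *Gpd1* at 107 ± 12.1 FPKM (SD, n = 6), *Aqp1* at 70.6 ± 7.18, *Gk* at 18.9 ± 3.00, *Aqp7* at 6.28 ± 0.327, *Aqp11* at 4.86 ± 0.427, *Aqp4* at 2.24 ± 0.150 and *Aqp3* at 1.05 ± 0.386, and no 2 neighbours in this order had overlapping ranges. In heterozygous mice *Aqp3* stood at 7.89 ± 2.56 FPKM, between *Aqp7* at 8.60 ± 1.53 and *Aqp11* at 5.56 ± 0.641, and its range overlapped with both. In homozygous mice *Aqp3* at 11.3 ± 1.80 FPKM was above *Aqp7* at 8.18 ± 1.07 in 6 of 6 libraries, although their ranges overlapped. Among the 5 listed aquaporins that passed the filter, *Aqp3* thus had the lowest mean in controls and the highest after *Aqp1* in homozygous mice. Of the summed FPKM of the 6 aquaporins, *Aqp3* held 1.26% ± 0.538 in controls, 7.93% ± 2.32 in heterozygous and 12.6% ± 1.73 in homozygous libraries, and *Aqp1* held 82.9% ± 1.62, 75.7% ± 3.23 and 69.8% ± 1.76.

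**Figure D1:**
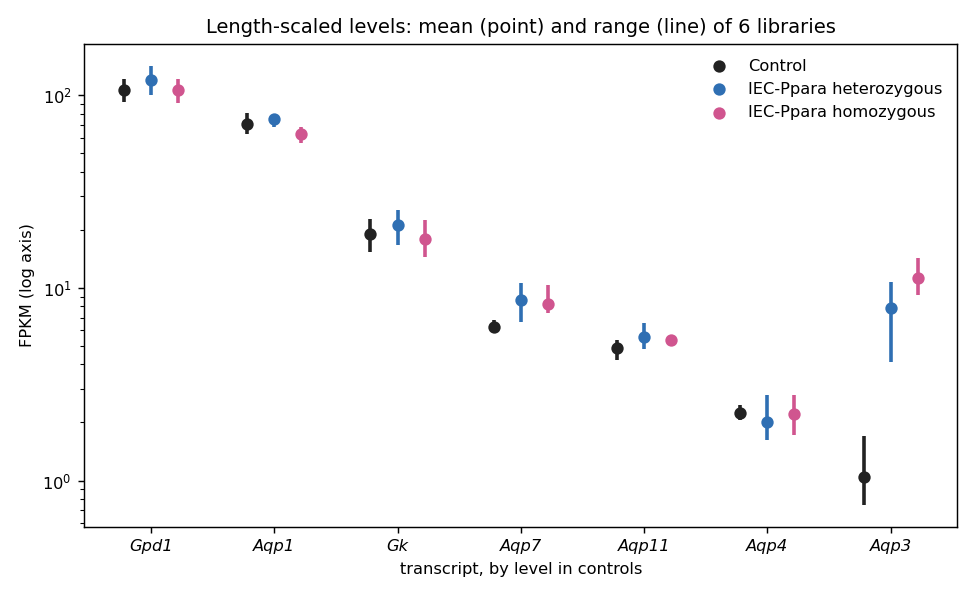
FPKM on a log axis of 7 transcripts in controls, heterozygous and homozygous IEC-*Ppara* mice, with the mean of 6 libraries as a point and their range as a line; *Aqp8*, listed at 0 in most libraries, is left out. *Aqp3* moves from 1.05 to 7.89 and 11.3 FPKM while *Gpd1*, *Aqp1* and *Gk* stay the 3 most abundant in each genotype.

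*Aqp3*, the aquaglyceroporin of the basolateral membrane of many epithelia, was higher in every IEC-*Ppara* library than in every control. In CPM, the 6 controls had 1.37, 1.65, 2.46, 1.56, 1.37 and 3.10, which is 60 to 123 counts. The heterozygous libraries had 7.56, 11.1, 19.7, 14.1, 14.9 and 19.2 CPM, and the homozygous libraries had 26.0, 21.7, 21.9, 16.8, 19.3 and 18.1 CPM. The lowest heterozygous value was 2.44 times the highest control, and the lowest homozygous value 5.42 times. Group means were 1.92 ± 0.707 CPM in controls, 14.4 ± 4.67 in heterozygous and 20.6 ± 3.30 in homozygous mice (SD, n = 6 each).

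In the edgeR fit over all 12645 protein-coding genes tested, *Aqp3* was 10.7-fold higher in homozygous mice than in controls (log2 fold change 3.42, SE 0.26, 95% interval 2.87 to 3.97) and 7.62-fold higher in heterozygous mice (2.93, SE 0.26, 2.39 to 3.47). By log2 fold change it ranked 6 and 5 among all genes tested in these comparisons. Homozygous against heterozygous, the log2 fold change was 0.49 (SE 0.23) with an interval of -0.01 to 0.98, and 3 of 6 homozygous libraries were above the highest heterozygous library. In males only this log2 fold change was 0.23. *Aqp3* entered the fit through the IEC-*Ppara* libraries: the filter asks for more than 3 CPM in at least 4 libraries, which all 12 IEC-*Ppara* libraries and 1 of 6 controls met, so a difference was built into its passing. With a filter of at least 10 counts in every library, which does not depend on the high group, its log2 fold changes were 3.41 and 2.93. Without the 4 libraries high in B cell markers they were 3.39 and 3.05.

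**Figure D2:**
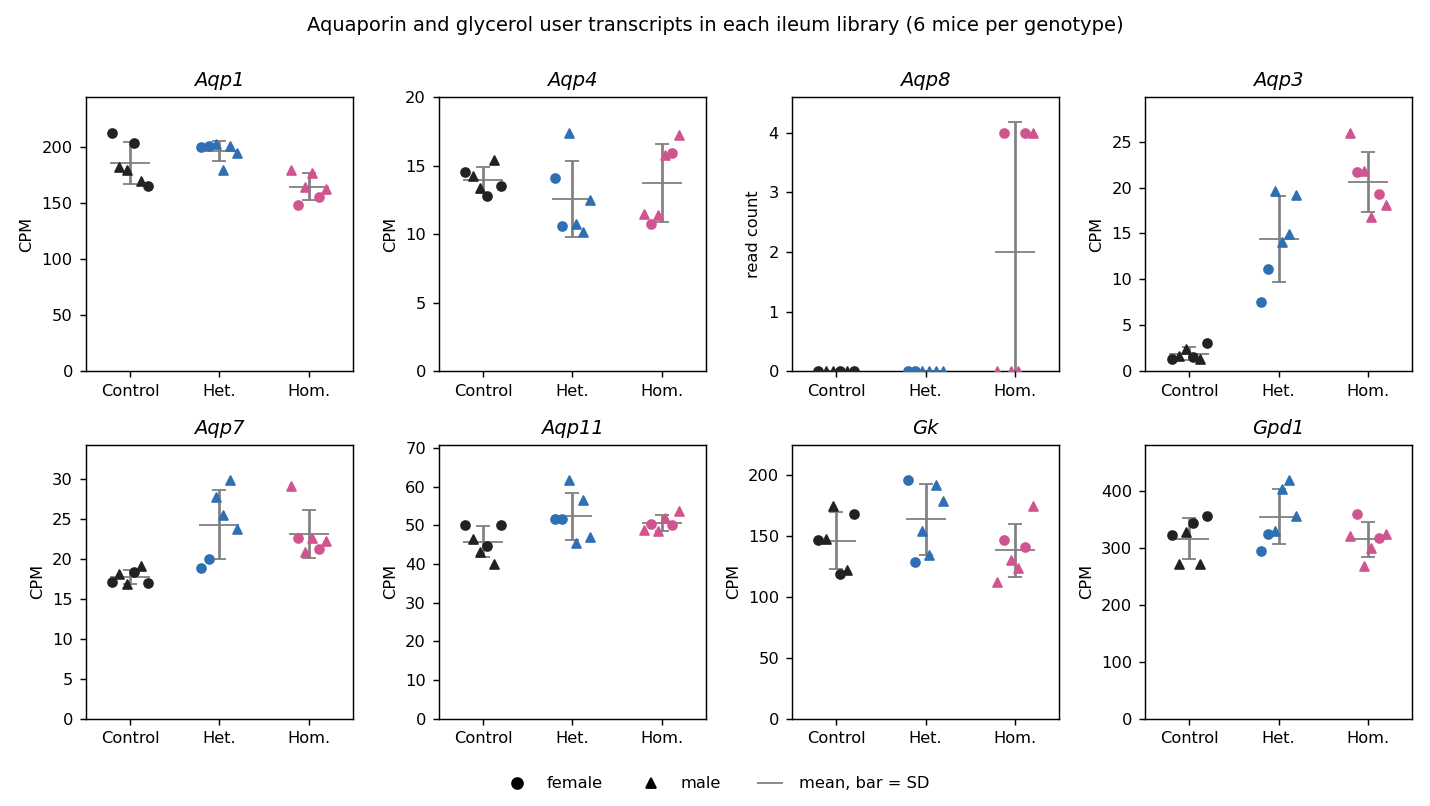
CPM in each library of 8 transcripts by genotype (for *Aqp8* the read count), with females as circles, males as triangles, and the mean and SD of 6 libraries in grey. All 12 IEC-*Ppara* libraries lie above the controls for *Aqp3*, while the genotypes overlap for *Aqp1*, *Aqp4*, *Aqp11*, *Gk* and *Gpd1*.

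*Aqp7*, the aquaglyceroporin best known for releasing glycerol from fat cells, showed a much smaller difference in the same direction. The controls lay closely together, at 17.1, 18.1, 16.8, 18.4, 19.1 and 17.0 CPM. The heterozygous libraries had 18.8, 19.97, 27.8, 25.6, 29.9 and 23.8 CPM, and the homozygous libraries 29.1, 22.7, 20.9, 22.6, 21.3 and 22.3 CPM. Every homozygous library exceeded every control, and 5 of 6 heterozygous libraries did. Means were 17.8 ± 0.925, 24.3 ± 4.34 and 23.1 ± 3.03 CPM, so the spread was wider in both IEC-*Ppara* groups. The fitted log2 fold change was 0.39 (SE 0.11) in homozygous and 0.49 (SE 0.11) in heterozygous mice against controls, or 1.31-fold and 1.40-fold, and -0.10 (SE 0.11) between the IEC-*Ppara* groups. It was not called in these comparisons by edgeR. DESeq2 called it in heterozygous mice against controls, among 82 of the 12645 genes tested. Homozygous replicate 1 stood apart from the other 5, and without it the homozygous value was 0.31. Without the 4 libraries high in B cell markers, of which it is a member, the values were 0.30 and 0.54.

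Against controls, edgeR and limma-voom called 1 of the 7 members tested (*Aqp3*) at an adjusted p under 0.05 in either comparison. EdgeR called 0.411% of all genes tested in homozygous and 0.293% in heterozygous mice. DESeq2 called 1 member in homozygous mice (*Aqp3*) and 2 in heterozygous mice (*Aqp3* and *Aqp7*). Of all 12645 genes tested, DESeq2 called 136 in homozygous and 82 in heterozygous mice, and limma-voom called 51 and 34. The unadjusted edgeR p was under 0.05 for 3 members in homozygous mice (*Aqp1*, *Aqp3* and *Aqp7*), and for 8.06% of all genes. In heterozygous mice it was so for 3 members (*Aqp3*, *Aqp7* and *Aqp11*) and 5.29% of all genes. Groups did not overlap in CPM for 2 members in homozygous mice (*Aqp3* and *Aqp7*; 0.854% of all genes tested) and for 1 in heterozygous mice (*Aqp3*; 0.467%). Between homozygous and heterozygous mice edgeR called no member (0.00791% of all genes), with 1 at an unadjusted p under 0.05 and, among the other tools, 1 called by DESeq2 (*Aqp1* in both cases) and 0 by limma-voom. Of all 12645 genes, DESeq2 called 9 there and limma-voom 1, and 7.61% had an unadjusted edgeR p under 0.05. No member was without overlap there (0.269% of all genes). These comparisons share the control or the heterozygous libraries, and since the members were selected on results of the same contrasts, the counts only describe them. The median log2 fold change of the 7 members was -0.00 in homozygous and 0.20 in heterozygous mice against controls, beside -0.00 and -0.01 over all genes tested.

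**Figure D3:**
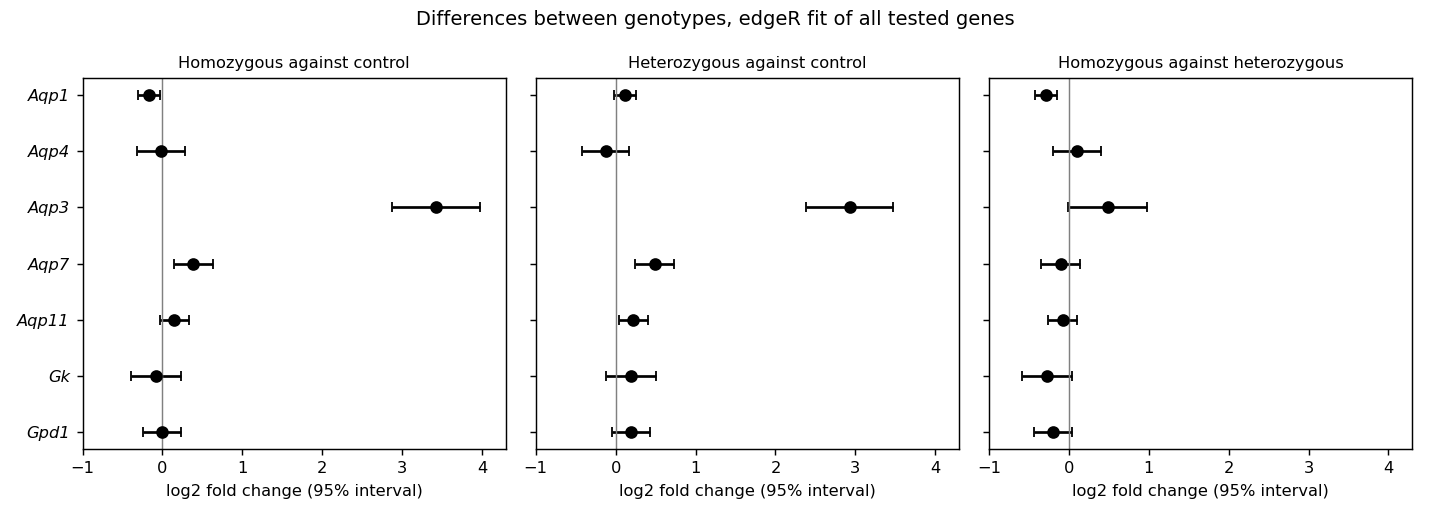
Log2 fold change of the 7 transcripts tested, with 95% intervals from the edgeR fit of all genes, for homozygous against control, heterozygous against control and homozygous against heterozygous mice. *Aqp3* lies at 3.42 and 2.93 against controls, and all other values lie between -0.28 and 0.49.

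*Aqp3* and *Aqp7* are neighbours on chromosome 4, on the same strand, with 44582 bases between them and no protein-coding gene in the gap. Of the 3 protein-coding genes on either side of the pair (*Bag1*, *Chmp5*, *Nfx1*, *Nol6*, *Ube2r2* and *Ubap2*), all 6 were tested and edgeR called 0 in homozygous and 0 in heterozygous mice against controls; DESeq2 and limma-voom also called 0. Their log2 fold changes ran from -0.12 to 0.08 in homozygous and from -0.12 to 0.12 in heterozygous mice. None of the 6 had an unadjusted p under 0.05 in either comparison.

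**Figure D4:**
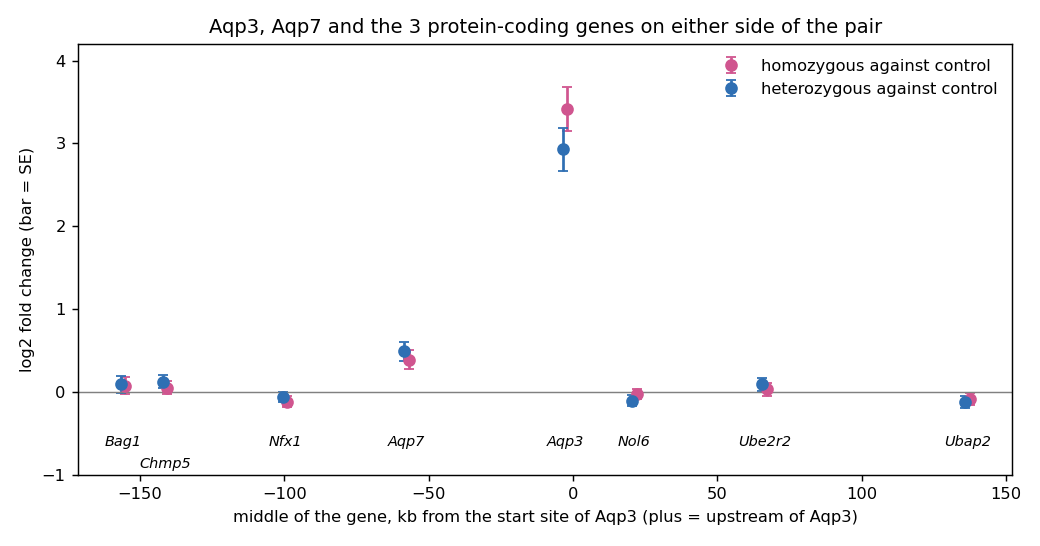
Log2 fold change against controls, with its SE, of *Aqp3*, *Aqp7* and the 3 protein-coding genes on either side, by the distance of each gene's middle from the *Aqp3* start site in kb. *Aqp3* stands at 3.42 and 2.93 and *Aqp7* at 0.39 and 0.49, while the 6 flanking genes lie between -0.12 and 0.12.

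Because PPARα with RXR binds a direct repeat of AGGTCA spaced by a single base, the RefSeq promoter windows (GRCm38.p6, 250 bases before to 50 after a start site) were searched on both strands for AGGTCANAGGTCA with up to 2 mismatches. Of 32851 such windows, 3.86% held a match. Windows were found for 6 of the 8 members, and *Aqp7* was the only member with a match. The bases upstream of its outer start site are shown with the match in capitals, and those of *Aqp3*, which had no match, are shown beside them because the larger difference was measured there.
*Aqp7*, 250 bases before the start, chr4:41048137-41048386, minus strand: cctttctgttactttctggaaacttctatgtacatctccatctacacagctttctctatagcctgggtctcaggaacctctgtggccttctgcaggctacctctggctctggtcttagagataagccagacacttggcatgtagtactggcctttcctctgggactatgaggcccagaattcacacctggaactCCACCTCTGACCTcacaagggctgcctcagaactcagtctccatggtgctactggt
*Aqp3*, 250 bases before the start, chr4:41098184-41098433, minus strand: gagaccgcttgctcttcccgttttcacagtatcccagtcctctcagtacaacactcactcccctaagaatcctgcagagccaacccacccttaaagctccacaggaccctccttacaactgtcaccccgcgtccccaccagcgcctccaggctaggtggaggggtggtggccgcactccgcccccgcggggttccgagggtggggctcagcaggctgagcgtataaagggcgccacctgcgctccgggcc

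The match at *Aqp7* begins 56 bases before that start, lies on the strand opposite to the one printed, and has 2 mismatches. A window around an inner start site of the same gene held the same match and a further one, CCACCTCTGACCT and TGACCTCTCCCCT as printed on the gene's strand, the former beginning 230 bases before that start. The single element AGGTCA was present in 16.3% of all windows on either strand, and in *Aqp7* and *Aqp11* among the members. These are matches of letters in a short window, and no binding was measured.

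Among the water channels, *Aqp1*, the classical channel of endothelium, red blood cells and many epithelia, was by far the most abundant aquaporin. It ranged from 165 to 213 CPM in controls (median 181), from 179 to 202 in heterozygous mice (median 200.1) and from 148 to 179.7 in homozygous mice (median 163). The groups overlapped in each comparison, and only homozygous replicate 1, at 179.7 CPM, was above the lowest heterozygous library, at 179.1 CPM. The log2 fold change was -0.17 (SE 0.07) in homozygous and 0.11 (SE 0.07) in heterozygous mice against controls, and -0.28 (SE 0.07, 95% interval -0.42 to -0.15) between homozygous and heterozygous mice. Within genotypes its level had r = -0.11 with the smooth muscle markers (rho = -0.20, permutation p = 0.714, adjusted p = 0.838), 0.20 with those of endothelium (permutation p = 0.486, adjusted p = 0.707) and 0.10 with those of red blood cells (permutation p = 0.716, adjusted p = 0.838). The relations to adipocyte markers (r = -0.49, permutation p = 0.0587, adjusted p = 0.303) and colon markers (r = -0.48, rho = -0.58, permutation p = 0.0473, adjusted p = 0.258) were larger and did not pass the adjustment over 98 relations.

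*Aqp4*, a water channel best known from astrocytes, was low and similar between groups. It ranged from 12.8 to 15.4 CPM in controls, from 10.1 to 17.4 in heterozygous and from 10.7 to 17.2 in homozygous mice, with medians of 13.9, 11.6 and 13.6. Intervals of the log2 fold change were -0.32 to 0.28 in homozygous and -0.42 to 0.17 in heterozygous mice against controls. *Aqp11*, an unorthodox aquaporin of the endoplasmic reticulum, ranged from 39.9 to 50.2 CPM in controls, from 45.5 to 61.7 in heterozygous and from 48.6 to 53.8 in homozygous mice, with medians of 45.6, 51.7 and 50.3. Its log2 fold changes against controls were 0.15 (SE 0.09) and 0.22 (SE 0.09), and the ranges of all groups overlapped.

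*Aqp8*, a water channel of colonic surface cells and of pancreatic acinar cells, was at the edge of detection. No reads were counted in the 6 controls or the 6 heterozygous libraries, and a count of 4 was found each in homozygous replicates 2, 5 and 6, with 0 in the other 3. A count of 0 allows up to 3 fragments, which is 6 counts where both mates of a pair are counted, or up to 0.156 CPM in the shallowest control library, and the counts of 4 lie below that limit. The gene did not pass the filter, and a fold is not given at this depth. Of 7 colon epithelium markers in the files, 4 were above 1 CPM in every library and 2, the hindgut genes *Hoxb13* and *Hoxd13*, were below 1 CPM in all 18. The colon list summed to 166 to 262 CPM in controls, 183 to 255 in heterozygous and 202 to 306 in homozygous mice, and was highest in homozygous replicates 6 (306 CPM) and 2 (289.9 CPM), both among the 3 libraries with *Aqp8* counts. The part of these values in the *Aqp8* counts was not tested. Of 10 pancreatic acinar markers, 9 were below 1 CPM in all libraries and 1, *Cela1*, was above 1 CPM in all of them, and the list summed to 3.96 to 7.07 CPM. The rest of the family was also near the floor: *Aqp2*, *Aqp5*, *Aqp6*, *Aqp9*, *Aqp12* and *Mip* were all below 1 CPM in every library, with *Aqp9*, a glycerol channel of the liver, the highest at up to 0.848 CPM, and none of the 6 passed the filter.

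Neither enzyme that uses glycerol or its phosphate was called against controls, and the genotypes overlapped for both. *Gk* ranged from 118 to 175 CPM in controls, from 129 to 196 in heterozygous and from 112 to 174.8 in homozygous mice, with medians of 147, 166 and 136. Its log2 fold change against controls was -0.08 (SE 0.15) in homozygous and 0.19 (SE 0.15) in heterozygous mice. *Gpd1* ranged from 271 to 356 CPM in controls, from 294 to 418 in heterozygous and from 267 to 359 in homozygous mice, with medians of 325, 343 and 319. The difference was -0.00 (SE 0.11; interval -0.24 to 0.24) in homozygous and 0.20 (SE 0.11; interval -0.04 to 0.44) in heterozygous mice.

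The other genes of glycerol metabolism were tested in the same fit from lists written with earlier results known. Of 12 genes for glycerol and glycerol-3-phosphate enzymes, 10 were tested and edgeR, DESeq2 and limma-voom called 0 in each of the 3 genotype comparisons, with 0, 0 and 2 at an unadjusted p under 0.05 for homozygous against control, heterozygous against control and homozygous against heterozygous mice. Of all genes tested, 8.06%, 5.29% and 7.61% were under that unadjusted threshold in these comparisons. The log2 fold change was above 0 for 4, 9 and 2 of the 10 (48.1%, 47.5% and 49.9% of all genes). The largest homozygous difference was that of *Gdpd3*, a glycerophosphodiesterase, at -0.34 (SE 0.18, adjusted p = 0.666, edgeR). *Gpd2*, the mitochondrial glycerol-3-phosphate dehydrogenase, was at 214 ± 44.4 CPM in controls, 234 ± 35.3 in heterozygous and 207 ± 34.4 in homozygous mice. Its log2 fold changes were -0.05 and 0.15 against controls.

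Glycerol is released from stored fat by lipases, and the log2 fold change of all 6 lipase genes listed was above 0 in homozygous against control mice (48.1% of all genes tested), that of 4 of 6 in heterozygous against control mice (47.5% of all genes) and that of 4 of 6 in homozygous against heterozygous mice (49.9%). The median was 0.27 in either comparison with controls, beside -0.00 and -0.01 over all genes. In homozygous against control mice *Lpl* was at 0.26 (SE 0.98) and *Pnpla3* at 0.14 (SE 0.92), errors that leave their signs undetermined. EdgeR, DESeq2 and limma-voom called 0 of the 6 in each of the 3 genotype comparisons, with 3, 3 and 0 at an unadjusted p under 0.05 in the same order (8.06%, 5.29% and 7.61% of all genes). The largest value was that of *Mgll*, monoacylglycerol lipase, which catalyses the step that frees glycerol: 52.6 ± 18.7 CPM in controls, 68.3 ± 19.9 in heterozygous and 83.2 ± 21.4 in homozygous mice (SD, n = 6 each), by the edgeR fit with a log2 fold change of 0.67 (SE 0.21, adjusted p = 0.297). Adipocyte markers, which also vary between these libraries (medians of 179 CPM in controls, 72.3 in heterozygous and 321 in homozygous mice), were not tested for their part in these values. Of 9 genes that acylate glycerol-3-phosphate on the way to triglycerides and phospholipids, 8 were tested and edgeR called 0, with *Gpam*, the mitochondrial acyltransferase, the largest in homozygous mice at 0.23 (SE 0.22, adjusted p = 0.836). DESeq2 and limma-voom also called 0, and 0, 1 and 1 of the 8 had an unadjusted p under 0.05 in the 3 comparisons.

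Water follows salt across the gut wall, and 19 genes of salt and fluid transport were tested. By edgeR and limma-voom 0 were called in each of the 3 comparisons, with 1, 0 and 4 of the 19 at an unadjusted p under 0.05 (8.06%, 5.29% and 7.61% of all genes). DESeq2 called 1, *Cftr*, in homozygous against control mice, where it called 136 of all 12645 genes tested. The largest homozygous difference was that of *Cftr*, the chloride channel of secreting crypt cells, at -0.70 (SE 0.18, adjusted p = 0.142, edgeR), with 132 ± 31.5 CPM in controls, 128 ± 34.3 in heterozygous and 80.7 ± 13.5 in homozygous mice. The 7 Paneth cell markers, of another crypt cell, summed to 12559 to 17860 CPM in controls (median 14179), 14631 to 17841 in heterozygous and 9557 to 14476 in homozygous mice (median 13688), and their part in the *Cftr* values was not tested. The log2 fold change was above 0 for 7, 12 and 4 of the 19 genes in the 3 comparisons (48.1%, 47.5% and 49.9% of all genes). The median of the list was -0.08 in homozygous and 0.01 in heterozygous mice against controls.

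Sex was not used in selecting the members and can be tested. Between females and males, with genotype in the model, edgeR called 7 of all genes tested (0.0554%) and 0 of the 7 members, with 0 members at an unadjusted p under 0.05 and 0 called by DESeq2 or limma-voom. The member with the largest value was *Aqp3*, at -0.21 (SE 0.21, adjusted p = 0.998), followed by *Aqp7* at -0.18 (SE 0.09, adjusted p = 0.998). With a library left out, *Aqp3* ran from -0.39 (without control replicate 6) to -0.07 (without heterozygous replicate 1). *Aqp7* ran from -0.22 to -0.14, so their order depended on single libraries. For the interaction of sex with genotype, IEC-*Ppara* of either dose against controls, edgeR called 0 genes (0% of all tested, with 644 at an unadjusted p under 0.05, 44 called by DESeq2 and 0 by limma-voom) and 0 members, none of them at an unadjusted p under 0.05 or called by DESeq2 or limma-voom. *Aqp3* was at -0.58 (SE 0.43, 95% interval -1.49 to 0.33, adjusted p = 0.999). When a library was left out, this value ran from -0.88 (without control replicate 3) to -0.07 (without control replicate 6).

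Within the heterozygous group the sexes did not overlap for 3 of the 7 members tested (*Aqp3*, *Aqp7* and *Gpd1*), where 10.5% of all genes tested did not overlap, and within the homozygous group for 1 (*Aqp1*), where 10.9% did not. *Aqp3* was at 7.56 and 11.1 CPM in the 2 females and at 14.1 to 19.7 CPM in the 4 males, *Aqp7* at 18.8 and 19.97 CPM in females and 23.8 to 29.9 CPM in males, and *Gpd1* at 294 and 324 CPM in females and 330.1 to 418 CPM in males. In the homozygous group the sexes overlapped for these genes, with *Aqp3* at 20.5 ± 1.72 CPM in females and 20.7 ± 4.14 in males. *Ppara* in the same heterozygous mice was at 107 and 122 CPM in females and at 108 to 196 CPM in males. With only 2 females in a group, and with this pattern seen after the values were known, it is given as values alone.

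Libraries of the same genotype also differ, and these differences are independent of how the members were selected. Each member's log2 CPM was therefore compared, after removal of the genotype means, with *Ppara* and with the scores of 13 cell type marker lists over the 18 libraries, 98 relations in all. All points share the library's composition, so a higher share of muscle lowers the share left for epithelium. By permutation within genotypes, 5 of the 98 had an adjusted p under 0.05. *Aqp11* fell where smooth muscle markers were high (r = -0.78, rho = -0.78, permutation p = 0.00014, adjusted p = 0.0137), with r of -0.83 in controls, -0.75 in heterozygous and -0.84 in homozygous mice. When the 2 libraries with the most extreme muscle scores were left out, r was -0.68. *Aqp11* was also lower where enteric glia markers (r = -0.78, adjusted permutation p = 0.0353) and mesothelium markers (r = -0.75, adjusted permutation p = 0.0455) were high. Control replicate 6 and heterozygous replicate 3 were the 2 farthest libraries for the muscle, glia and mesothelium scores alike, so these relations are not separate observations. Without them r was -0.66 for glia and -0.58 for mesothelium. 

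Both enzymes moved with the enterocyte markers. *Gpd1* had r = 0.78 with them (rho = 0.73, permutation p = 0.00056, adjusted p = 0.0274), which was 0.65 without the 2 farthest libraries, and 0.84 in controls, 0.63 in heterozygous and 0.93 in homozygous mice. *Gk* had r = 0.72 (rho = 0.74, permutation p = 0.00232, adjusted p = 0.0455), which was 0.62 without them, and 0.82, 0.84 and 0.35 within the genotypes in the same order. For *Aqp3* the enterocyte relation (r = 0.63, rho = 0.65, permutation p = 0.0145) did not pass the adjustment (adjusted p = 0.125), and r was 0.49 without the 2 farthest libraries and 0.91, 0.39 and 0.45 within the genotypes. Nor did its relations to the enteric glia markers (r = -0.69, rho = -0.56, permutation p = 0.00825, adjusted p = 0.102) and the smooth muscle markers (r = -0.64, rho = -0.52, permutation p = 0.0153, adjusted p = 0.125), which were -0.44 and -0.30 without the 2 farthest. Within controls, heterozygous and homozygous mice the glia value was -0.88, -0.51 and -0.37, and the muscle value -0.90, -0.45 and 0.06. That with *Ppara* itself did not pass either (r = 0.47, rho = 0.44, permutation p = 0.09, adjusted p = 0.368), and was 0.35 without the 2 farthest and 0.39, 0.75 and -0.22 within the genotypes. *Aqp7* and the enterocyte markers also missed the threshold (r = 0.56, rho = 0.47, permutation p = 0.0115, adjusted p = 0.113), with r of 0.10 in controls, 0.76 in heterozygous and 0.72 in homozygous mice. With the adipocyte markers, in libraries where *Adipoq* ran from 0 to 56.6 CPM, *Aqp7* had r = -0.23 over all genotypes (rho = -0.14, permutation p = 0.432, adjusted p = 0.675), but the values within genotypes differed widely, at 0.22 in controls, -0.05 in heterozygous and -0.95 in homozygous mice (6 libraries each), and that difference was not tested.

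**Figure D5:**
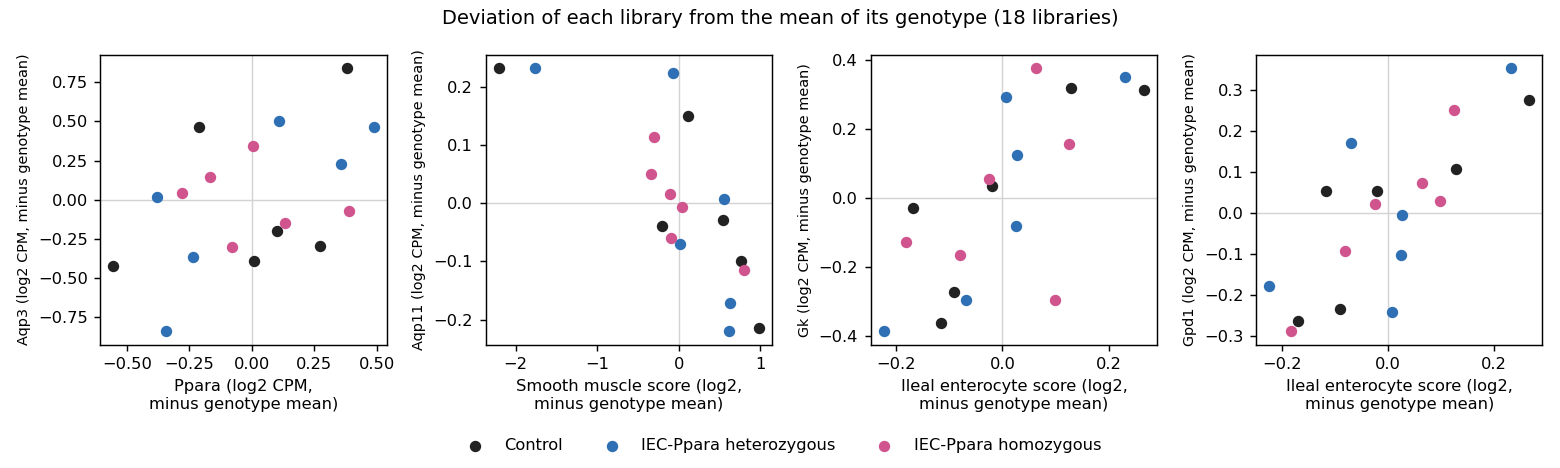
Deviation of each of 18 libraries from the mean of its genotype, in log2 units, for *Aqp3* against *Ppara*, *Aqp11* against the smooth muscle score, and *Gk* and *Gpd1* against the ileal enterocyte score. *Aqp11* is lower in libraries with more smooth muscle signal (r = -0.78) and *Gpd1* higher in those with more enterocyte signal (r = 0.78), while points for *Aqp3* scatter more widely (r = 0.47).

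The genes whose pattern over the libraries was most like that of each member, after removal of the genotype means, were found among 12643 other genes by Pearson's r and are given as a description. *Gk* was closest to *Gpd2* (r = 0.95), followed by *Picalm* and *Sec23a* (0.95 and 0.94). Genes close to *Gpd1* included *Bpnt1* (0.93) and *Ggt1* (0.92). Genes close to *Aqp11* included *Naip5* and *Mgat4a* (both 0.89), and *Aqp4* was closest to *Lrp4*, *Nhsl1* and *Mrtfb* (0.92, 0.86 and 0.85). The closest to *Aqp7* were *Tm7sf3*, *Ms4a10* and *Treh* (0.87, 0.86 and 0.85), to *Aqp1* *Acp6*, *Pbld2* and *Oxsr1* (0.83, 0.80 and 0.78), and to *Aqp3* *Cmtm6*, *Casp4* and *Akirin1* (0.78, 0.77 and 0.75). Between the members, *Aqp3* had r = 0.54 with *Gpd1*, 0.53 with *Aqp7* and 0.28 with *Gk*, *Aqp7* had 0.55 with *Gpd1*, and *Aqp11* had 0.58 with *Gk*.

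With the genotype means left in, *Aqp3* was most like *Fabp1* (r = 0.97), *Ppara* (0.96), *Gal3st2b* (0.96), *Cyp4a10* (0.95) and *Hsd17b11* (0.94). This likeness is set by the genotype difference on which *Aqp3* was selected. *Fabp1*, a fatty acid binding protein of enterocytes and liver, was at 10.8 ± 3.30 CPM in controls, 111 ± 33.7 in heterozygous and 158 ± 13.5 in homozygous mice. *Hsd17b11*, an enzyme found on lipid droplets, was at 222 ± 12.5, 377 ± 70.0 and 420 ± 59.7 CPM.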

How the data were processed

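RNA of whole-thickness ileum from 18 mice was poly-A selected and sequenced by the authors as paired reads. Per the submitters' processing notes and the study's methods, reads were aligned with STAR 2.7.9a to GRCm38 and uniquely aligned reads were assigned to genes with featureCounts 2.0.3. The deposited counts are whole numbers per gene and library, and 76.6% of the 144219 values from 1 to 12 were even, so both mates of a pair appear to be counted and counts exceed fragments. The deposited CPM equal each count divided by the library total. The deposited FPKM and the authors' moderated log2 CPM were not used in tests, and levels per length were computed from the counts and the deposited gene lengths.

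Genes were tested in edgeR 4.0.16 (R 4.3.3) by the quasi-likelihood test with TMM scaling, in 1 fit of all libraries, on protein-coding genes above 3 CPM in 4 or more libraries, with Benjamini-Hochberg adjustment over the 12645 genes that passed and a threshold of 0.05. The steps were tested on simulated data. DESeq2 1.42.0, limma-voom (limma 3.58.1), other scalings, filters and sets of libraries were tried as alternatives. Relations within genotypes used 100000 permutations of libraries within genotype. Depth limits each value only through counting error, while p-values measure the spread between mice. The members, lists and rules were chosen with earlier results of these data known. Genes named beyond the members were, of each list, those called or else the gene with the largest homozygous difference, the 3 genes most like each member (2 of these genes are not reported here), and the protein-coding genes flanking *Aqp3* and *Aqp7*. *Gpd2* and the values of *Fabp1* and *Hsd17b11* were added because they appeared among the genes most like *Gk* and *Aqp3*, for which the 5 most alike with genotype means left in are also named. Markers named singly (*Adipoq*, *Fabp2* and those of colon and pancreas) were chosen after their values were seen. Sequences are from GENCODE M21 positions and RefSeq promoter tables of GRCm38.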

Additional observations from a re-analysis of the deposited data

Results flagged for a closer look

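In 21 groups of 6 libraries examined for a library far from the rest, 2 had one, where chance gives about 1 in 20 groups. *Aqp7* in homozygous replicate 1 was 29.1 CPM, while the nearest of the other 5 libraries was 22.7 and the lowest 20.9, so the gap was 0.787 of the group's range. The same library was among the 4 with high B cell markers. *Aqp1* in heterozygous replicate 4 was 179 CPM, while the nearest of the others was 195 and the highest 202, a gap of 0.672 of the range.

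For *Gpd1*, every heterozygous female library was on the other side of its control mean from the males: females were at 309 ± 21.0 CPM (SD, n = 2) against 340 ± 17.0 in control females (n = 3), whereas males were at 377 ± 40.8 (n = 4) against 290 ± 32.6 in control males (n = 3). The test of the difference, with both doses pooled, gave a log2 value of -0.30 (SE 0.20, adjusted p = 0.999 by edgeR), so it did not pass the threshold.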

How the results depend on the processing

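The members were chosen on these genotype contrasts, so their values over the alternatives are a description and no support. The log2 fold change of *Aqp3* against controls lay between 3.33 and 3.64 in homozygous and between 2.83 and 3.15 in heterozygous mice when a library was left out. *Aqp7* lay between 0.31 and 0.42 in homozygous and between 0.41 and 0.55 in heterozygous mice. For homozygous against control mice the 52 genes called became 136 with DESeq2 and 31 without the 4 B cell rich libraries, and 43 to 65 when a library was left out. For heterozygous against control mice the 37 became 82 with DESeq2, 23 with only the 2 groups, 22 with the replicate block, 124 in males only and 15 without the B cell rich libraries, and 25 to 53 when a library was left out; 2 members were called with DESeq2, and 1 to 2 when a library was left out (*Aqp7* without heterozygous replicate 1 or 2). For homozygous against heterozygous mice the 1 gene called became 9 with DESeq2 and 0 with RLE size factors, no filter, 10 counts in every library, all biotypes, only the 2 groups, sex as a covariate, the replicate block, males only, or without the B cell rich libraries, and 0 to 2 when a library was left out (2 without heterozygous replicate 4); DESeq2 called 1 member. Between sexes the 7 genes became 3 with 10 counts in every library, and 7 to 8 when a library was left out. For the interaction the 0 genes became 44 with DESeq2 and up to 39 when a library was left out (without control replicate 5), from 0. In males only, values that moved included *Aqp1* in homozygous mice (-0.04), *Aqp11* (0.35) and *Gpd1* (0.44) in heterozygous mice, and *Gpd1* between the IEC-*Ppara* groups (-0.37). *Aqp3* between the IEC-*Ppara* groups was 0.23 in males only, against 0.49 in the main fit. For homozygous against control mice, values near 0 that changed sign were *Aqp4* (-0.02; up to 0.02 over the alternatives and -0.10 to 0.05 when a library was left out), *Gk* (-0.08; 0.04 without the B cell rich libraries) and *Gpd1* (-0.00; -0.04 to 0.07 over the alternatives and -0.05 to 0.07 when a library was left out). Between the sexes: *Aqp1* was -0.00044 and *Aqp4* 0.0106 with the replicate block, and leaving out a library gave -0.0155 to 0.0393 for *Aqp1*, -0.11 to 0.00861 for *Aqp4* and -0.0408 to 0.10 for *Gk*. For the interaction, *Aqp4* was 0.0236 with library size scaling, 0.36 with the replicate block, 0.14 without the B cell rich libraries and -0.12 to 0.0914 when a library was left out, and *Gk* was -0.16 without the B cell rich libraries and -0.12 to 0.22 when a library was left out. The cause of these changes was not tested. The replicate numbers did not pair the samples: 9 of 18 same-numbered pairs correlated above 0.1 (-0.61 to 0.64), in 3 of 36 comparisons of a library with another group it correlated best with its own number, and with the replicate block 49, 22, 0, 7 and 0 genes were called in the 5 comparisons in the order given here.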
